A study of Mus musculus with 2 samples.

Results

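The genes described here build the primary cilium and the centrosome. They are the 74 rows of the deposited table whose symbols begin with Ift, Bbs, Cep, Tctn or Nphp and a number or with Dync2, together with Kif3a, Kif3b, Kif3c, Arl3, Arl13b and Rfx3, of 17245 genes in all. The rule itself reads gene symbols. RNA came from hand-picked mouse pancreatic islets that had been freed by collagenase and then kept in culture medium, with 1 library from wild type mice (WT) and 1 from mice with a β-cell knockout of the DNA sensor cGAS (KO, named cGASβKO in the series' design). Both groups shared the anaesthetic, the digestion and the culture. The sources used here do not give the driver or the deleted exon of the knockout, the age and sex of the mice, or how many mice were behind each library. There was 1 library per genotype, so the differences have no replicate check and no test was possible.

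The primary cilium is a single antenna-like projection of the plasma membrane, built on a core of microtubules that grows from the mother centriole. Particles called intraflagellar transport trains carry its parts in and out along that core, and a gate at its base, the transition zone, decides which proteins enter. In the pancreas the endocrine cells of the islet and the duct cells carry a primary cilium, whereas acinar cells do not. The cilium of β-cells is known to take part in insulin secretion, and it holds receptors such as the somatostatin receptor Sstr3. The centrosome is a pair of centrioles in a protein matrix that organises microtubules in every cell type of the islet, so most Cep genes are not particular to ciliated cells.

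Reads per library, worked out from the steps of the FPKM values (a level per kilobase of gene and per 1000000 reads or fragments), came to 14537660 for KO and 19097001 for WT. Cgas RNA was not lower in the library labelled KO, at 0.521 against 0.205 FPKM, a ratio of 2.55 (exact 95% interval 1.35 to 4.98), so that library is called by its label throughout. Each interval in parentheses was computed at 95% by the exact Clopper-Pearson method for the ratio of a gene's FPKM values, and covers counting error only. The smallest whole reads that fit both values were used for it. Where the true reads were a multiple of these, the interval is too wide and may hold 1 for that reason alone. Pairs of values are given with the library labelled KO first, and "higher" and "lower" refer to that library against WT. The 10 β-cell markers were all present, 7 of them lower in the library labelled KO (median log2 difference -0.55), and they summed to 437355 FPKM there and 396668 FPKM in the WT library. Of 14 acinar markers 11 reached 1 FPKM in either library and all 11 were lower in the library labelled KO, with sums of 116 and 1955 FPKM. Ptf1a, not among the 11, was below 1 FPKM in the WT library and listed at 0 in the library labelled KO. The 12 endothelial markers, the 10 macrophage markers and the 11 of 12 fibroblast, stellate-cell and pericyte markers that reached 1 FPKM were all higher there, with sums of 842 against 367, 349 against 149 and 241 against 127 FPKM. The 10 ductal markers that reached 1 FPKM, of 12, were 5 higher and 5 lower, with sums of 463 and 470.3 FPKM. Sums over the 8 α-cell, 6 δ-cell and 3 PP-cell markers were 27940.2 against 28300.2, 4675 against 3007 and 12838 against 7750.1 FPKM, and over the 6 Schwann-cell markers 28.7 against 16.3 FPKM. The part of these cell types in the differences given below was not tested, and in whole islets fewer cells of a type and less RNA per cell cannot be told apart.

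Rfx3, itself one of the 74 genes, encodes a transcription factor of the RFX family, which switches on many ciliary genes through a motif in their promoters called the X-box. RefSeq promoter windows on GRCm38.p6, from 250 bases before to 50 bases after a start site, were found for 62 of the 74 genes, 71 windows in all. A loose form of the X-box, the 6 bases GTNNCC followed 3 bases later by the 5 bases GNAAC (N is any base, both strands searched), occurred in 12 of these 71 windows (16.9%), against 2.17% of all 32851 windows of 300 bases and 2.64% of the windows of genes at or above 1 FPKM in a library of this table. The 6 bases GTTGCC, which can form the first part of that pattern and so overlap it, occurred in 36.6% of the members' windows and 12.5% of all windows. The 12 genes with the longer pattern were Bbs1, Bbs4, Bbs7, Cep112, Cep19, Cep44, Cep83, Ift22, Ift57, Nphp4, Tctn1 and Tctn2. Printed here, because they show the motif that was more frequent in the set's windows and that its own member Rfx3 is known to bind, are 6 sites that lie wholly before the start site, 5′ to 3′ on the gene's strand, with the matched pattern in capitals. In Ift57 and Tctn2 the pattern is met when read on the opposite strand, and in Bbs7 on both.
Bbs7: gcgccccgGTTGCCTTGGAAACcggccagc
Ift22: tgttcccgGTCGCCGTGGAAACtgaccagc
Ift57: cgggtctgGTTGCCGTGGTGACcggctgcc
Tctn2: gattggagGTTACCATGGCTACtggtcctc
Nphp4: cggtgcccGTCTCCTAGGTAACgcgccagc
Cep112: cccggagcGTCGCCATGGCAACagagttga
These stretches are chr3:36613489-36613518 on the minus strand for Bbs7 and, on the plus strand, chr5:136908109-136908138 for Ift22, chr16:49699199-49699228 for Ift57, chr5:124598679-124598708 for Tctn2, chr4:152477903-152477932 for Nphp4 and chr11:108425174-108425203 for Cep112, where the numbers give GRCm38.p6 coordinates. The pattern begins 121 bases before the start site in Bbs7, 33 in Ift22, 87 in Ift57, 62 in Tctn2, 231 in Nphp4 and 84 in Cep112. Not printed are the site of Cep44 and a further site each in Ift22 and Cep112, which also lie wholly before the start site. A match describes these letters only and says nothing of binding in these islets.

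The level of Rfx3 was low in both libraries, 1.22 FPKM (KO) against 2.17 FPKM (WT), which is 1.78-fold lower (1.56 to 2.03). The 12 genes whose promoter windows held the motif lay on both sides of the WT library, 6 above and 6 below, with a median log2 difference of 0.018 and a range of -0.47 to 0.62. A log2 difference here is log2((KO + 1)/(WT + 1)) of FPKM values, a scale that understates the change of low genes. Of the genes whose sites are printed above, Ift22 was at 14.98 against 10.7 FPKM and Cep112 at 1.37 against 1.05 FPKM, both higher in the library labelled KO. Bbs7 (5.56 against 8.11 FPKM) and Ift57 (20.2 against 28.3 FPKM) were lower, and the intervals of Cep112, Tctn2 and Nphp4 held a ratio of 1. The 47 genes at or above 1 FPKM whose windows lacked the pattern had a median of 0.11. The 11 expressed members without a promoter window had a median of -0.51, with 1 above 0, and whether they hold the pattern is not known. With a trend of the difference on GC content and transcript length removed, Rfx3 itself, with a transcript of 9146 nucleotides and 40.2% GC, was at 0.093 in place of -0.51.

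The genes were present at moderate levels in both libraries and few differed widely. Of the 74 genes, 70 reached 1 FPKM in at least 1 library; Cep55, Cep72, Cep128 and Cep295nl did not, and Bbs12 and Cep152 reached it in the library labelled KO alone. The median level of the members was 6.20 FPKM in KO and 5.65 FPKM in WT. Arl3 and Ift20 stood highest in both and together made up 24.4% and 18.1% of the members' summed FPKM. Across the 70 genes the levels of the libraries had a Pearson r of 0.909 on the log2(FPKM + 1) scale and a Spearman rho of 0.894, a description over genes that share both libraries and are not independent replicates. In each library 19 members reached 10 FPKM, 15 of them in both.

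A gene was called at a 2-fold difference on the log2(FPKM + 1) scale. By that rule 1 member, Ift43, was higher in the library labelled KO, beside 6.98% of all 12428 expressed genes, and 1 member was lower, beside 3.88% of all. For either direction that is 2 of 70, beside 10.9% of expressed genes. Of the 70, 36 lay above 0 and 34 below, beside 54.4% of all expressed genes above 0, and the median was 0.042 beside 0.077 over all. Without the floor 38 of all 74 lay above 0, beside 58.2% of all 17245 genes. Counting intervals lay above a ratio of 1 for 25 members (42.1% of all expressed genes) and below 1 for 23 (34.2%), and 22 held 1. The split depends on the scale of the table: with each library scaled to a sum of 1000000 the median over all genes shifted to -0.039 and that of the members to -0.059, with 29 of 70 above 0. Of all calls over expressed genes, 64.3% were in the higher direction, against 46.5% on that scale, 52.0% when scaled by the median ratio and 43.7% with equal sums of the libraries without the 20 highest genes.

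**Figure D1:**
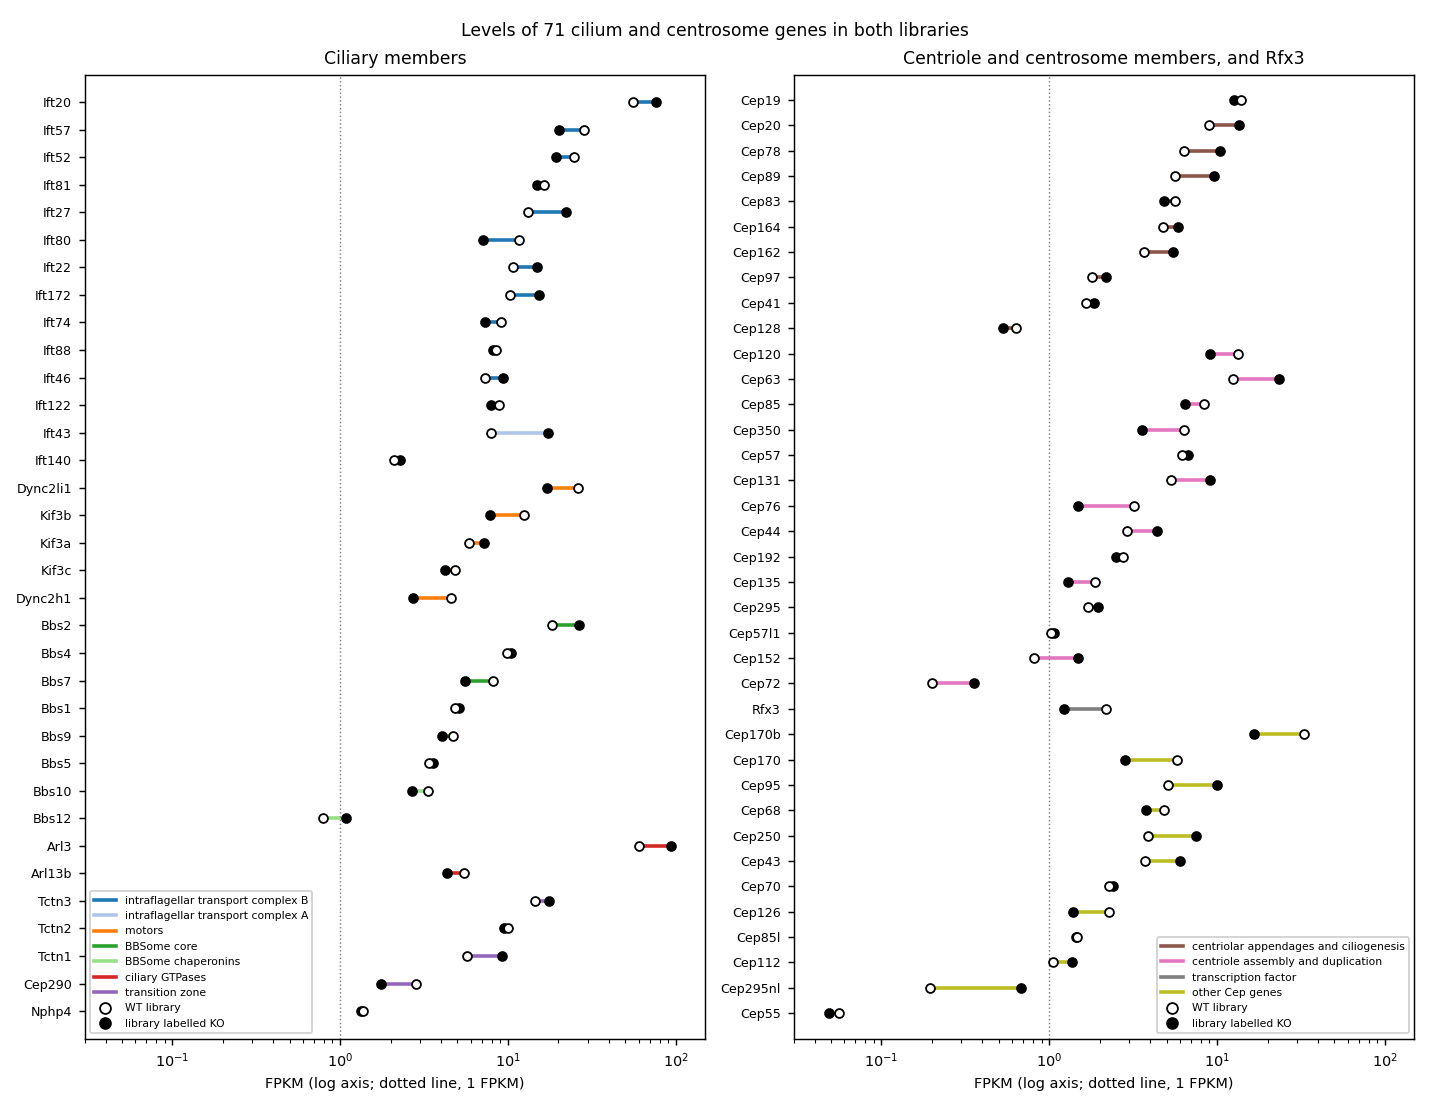
Levels of 71 of the genes in FPKM on a log axis, with the WT library as open and the library labelled KO as filled circles, joined by a bar coloured by role and ordered by WT level within each role. Most pairs lie close together, Arl3 and Ift20 stand highest in both libraries, and Ift43 and Cep170b are among the wider gaps, at 17.4 against 7.96 FPKM and 16.5 against 32.9 FPKM.

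Intraflagellar transport complex B is the train that kinesin-2 pulls towards the ciliary tip. All 11 of its genes in the table were expressed, and they lay between 7.15 and 76.1 FPKM in the KO-labelled library and between 7.34 and 55.7 FPKM in the WT library. They split into 5 above and 6 below 0, with a median of -0.042 and a range of -0.64 to 0.70, and none was past 2-fold. Ift20, a small subunit that also works at the Golgi, was the highest at 76.1 FPKM (KO) against 55.7 FPKM (WT), 1.37-fold higher (1.09 to 1.72). The Rab-like GTPase Ift27, which helps ciliary membrane proteins to leave, was at 22.03 against 13.2 FPKM, 1.67-fold higher (1.41 to 1.98). Ift22, the other small GTPase of the complex, was 1.40-fold higher (1.25 to 1.57). Ift172, a large subunit, was at 15.4 against 10.3 FPKM, 1.50-fold higher (1.38 to 1.63), and its transcript is 5403 nucleotides long. The higher members thus included both small and large subunits.

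Lower in the library labelled KO were Ift80, Ift57, Ift52 and Ift74, whose intervals all lay below 1. Ift80, at 7.15 against 11.7 FPKM, was the lowest of the complex by difference, 1.63-fold lower (1.46 to 1.83). Ift57, one of the subunits that contact kinesin, was 1.40-fold lower (1.28 to 1.54) and Ift52, a central subunit, was 1.28-fold lower (1.16 to 1.42). Ift88, the subunit whose loss is the classic way to remove cilia in mice, was at 8.19 against 8.45 FPKM, and its interval of 0.79 to 1.18 held 1. With the GC and length trend removed the log2 difference of Ift27 was 0.13 and that of Ift80 -0.21. On that scale 7 of the 11 complex B genes lay above 0, with a median of 0.21.

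Complex A works in the return journey and in the entry of membrane proteins, and 3 of its genes matched. Ift43, its smallest subunit, was at 17.4 FPKM (KO) against 7.96 FPKM (WT), 2.19-fold higher (1.74 to 2.76), a log2 difference of 1.04, just past the limit. By level it ranked 28 of 74 in the WT library and 9 in the library labelled KO. Ift122 was at 7.97 against 8.80 FPKM and Ift140 at 2.27 against 2.11 FPKM, with intervals that held 1. Ift43 lies on chromosome 12 from 86082541 to 86162459 (GENCODE M21, GRCm38), its exons overlap no other annotated gene, and its 783-nucleotide transcript is the shortest of the set. The call was lost with a pseudocount of 5 FPKM (0.79), with each of the 3 scalings (0.90 to 0.96) and after removal of the GC and length trend (0.60).

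The motors had the lowest median of the role groups, -0.58, and none was past 2-fold. As reported and under each of the 3 scalings 4 of 5 genes lay below 0. Over all expressed genes 54.4% lay above 0 as reported. Dync2h1, the heavy chain of the dynein-2 motor that returns trains to the base, was at 2.70 against 4.61 FPKM, 1.71-fold lower (1.54 to 1.89). Dync2li1, its light intermediate chain, was at 17.1 against 26.01 FPKM, 1.52-fold lower (1.34 to 1.74). Their transcripts measure 14264 and 1354 nucleotides. Of the kinesin-2 genes, Kif3b was at 7.77 against 12.5 FPKM, 1.60-fold lower (1.32 to 1.95), and its partner Kif3a was at 7.24 against 5.84 FPKM, 1.24-fold higher (1.12 to 1.37), so their order by level differed between the libraries. Kif3c, the alternative partner of Kif3a, was 1.15-fold lower (1.02 to 1.31), but 40.7% of its exonic bases are shared with antisense genes on the opposite strand, and whether the counting used strand is not stated. With the GC and length trend removed 3 of the 5 genes lay below 0 and 2 above. Their median was -0.061, which is Dync2h1 itself, with Dync2li1 at -0.61, Kif3b at -0.33, Kif3c at 0.022 and Kif3a at 0.47.

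The BBSome is a coat that carries membrane receptors out of the cilium. Its 6 core genes in the table had a median of 0.066 and a range of -0.47 to 0.51, and 4 of the 6 intervals held 1. Bbs2, a core subunit, was the highest, at 26.5 FPKM (KO) against 18.3 FPKM (WT), 1.45-fold higher (1.33 to 1.58). Bbs7, which binds Bbs2 directly, was at 5.56 against 8.11 FPKM, 1.46-fold lower (1.24 to 1.72). The remaining subunits Bbs1 (5.12 against 4.86 FPKM), Bbs4 (10.4 against 9.81 FPKM), Bbs5 (3.58 against 3.36 FPKM) and Bbs9 (4.05 against 4.72 FPKM) differed by no more than the counting interval. The directions of Bbs1, Bbs4 and Bbs5 flipped under at least 1 scaling. The chaperonin-like genes that help to assemble the coat stood low, with Bbs10 at 2.67 against 3.35 FPKM and Bbs12 at 1.09 against 0.786 FPKM.

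Of the ciliary GTPases, Arl3 frees lipid-anchored proteins inside the cilium and Arl13b, on the ciliary membrane, activates it. Arl3 had the highest FPKM of all 74 genes, 93.2 FPKM (KO) against 60.6 FPKM (WT), at percentile 94.2 of expressed genes in the WT library, and was 1.54-fold higher (1.42 to 1.66). Arl13b was at 4.33 against 5.47 FPKM, 1.26-fold lower (1.08 to 1.49). The ordering of the pair was the same in both libraries, and their differences pointed in opposite directions. With the GC and length trend removed they stood together, with Arl3 at 0.091 and Arl13b at 0.094.

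The transition zone genes had a median of -0.027, with 3 of 7 intervals above 1, 2 below and 2 holding 1. Over all expressed genes 42.1% of intervals lay above 1 and 34.2% below. The tectonic gene Tctn1 was at 9.26 against 5.66 FPKM, 1.64-fold higher (1.37 to 1.96), but 25.5% of its exonic bases are shared with Hvcn1 or a pseudogene on the opposite strand. Tctn3 was at 17.5 against 14.5 FPKM, 1.20-fold higher (1.09 to 1.33), and Tctn2 at 9.43 against 9.96 FPKM with an interval of 0.69 to 1.29. Cep290, the large protein that joins microtubules to the membrane at the gate, was at 1.75 against 2.83 FPKM, 1.62-fold lower (1.40 to 1.87), but its log2 difference turned from -0.48 to 0.14 after removal of the GC and length trend. Of the exonic bases of Cep290 7.58% are shared with 4930430F08Rik on the opposite strand. Nphp4 was close in both libraries at 1.33 against 1.37 FPKM.

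**Figure D2:**
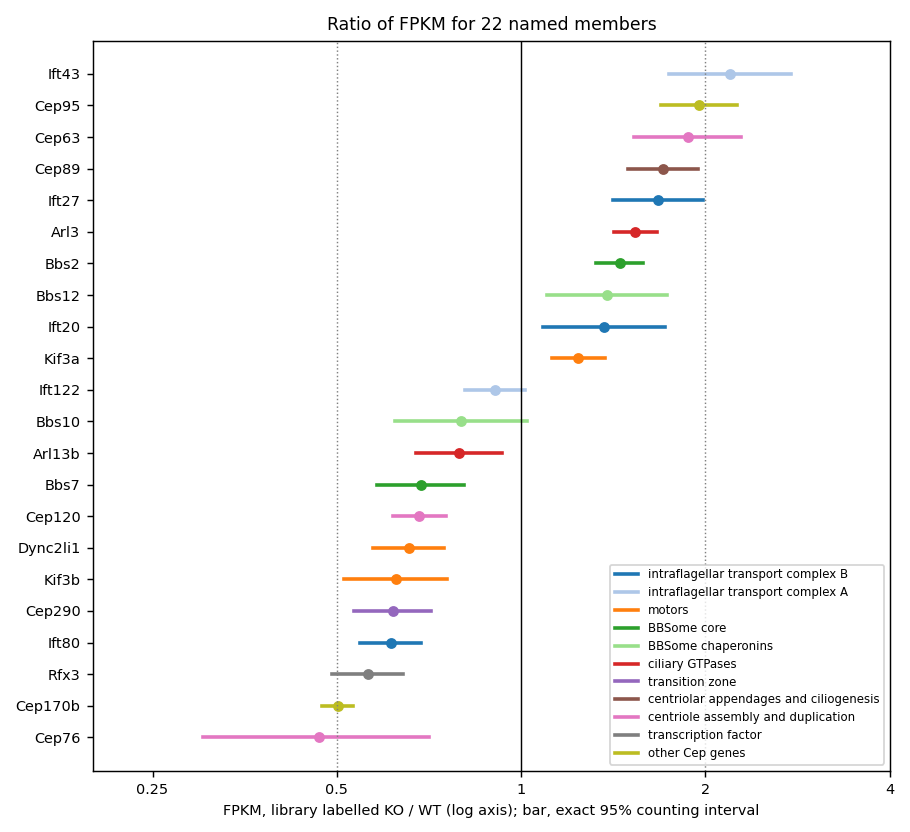
Ratio of FPKM, library labelled KO to WT, for 22 members named by the selection rule, on a log axis with exact 95% counting intervals and dotted lines at 2-fold either way. No interval drawn lies wholly below 0.5 or wholly above 2, and Cep76 and Ift43 stand at the ends.

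Of the 10 expressed genes of the centriolar appendages and of the first steps of ciliogenesis 7 lay above 0, with a median of 0.22. Over all expressed genes 54.4% lay above 0. Intervals lay above 1 for 5 of the 10, beside 42.1% of all expressed genes, and 4 held 1. The distal appendage genes, whose products anchor the mother centriole to the membrane, were Cep89 at 9.62 against 5.65 FPKM, 1.70-fold higher (1.50 to 1.94), Cep164 at 5.82 against 4.77 FPKM and Cep83 at 4.86 against 5.63 FPKM, and the intervals of Cep164 and Cep83 held 1. Cep78 was at 10.4 against 6.33 FPKM, 1.64-fold higher (1.42 to 1.90), and Cep20 at 13.6 against 8.96 FPKM, 1.52-fold higher (1.25 to 1.84). Cep162, which marks the centriole end for transition zone assembly, was at 5.46 against 3.67 FPKM, 1.49-fold higher (1.32 to 1.68). Cep97, part of the cap that holds back cilium growth, and Cep41, needed for glutamylation of ciliary tubulin, were near 2 FPKM in both libraries, 2.19 against 1.80 FPKM and 1.85 against 1.65 FPKM. Cep19 was close in both libraries at 12.6 against 13.9 FPKM.

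Genes of centriole assembly and duplication had a median of 0.028 and a range of -0.75 to 0.85, with 7 above and 6 below 0 of 13. None of them was past 2-fold on the log2(FPKM + 1) scale. Cep63 and Cep152 form a ring around the centriole that recruits the duplication kinase. Cep63 was at 23.4 FPKM (KO) against 12.5 FPKM (WT), 1.87-fold higher (1.53 to 2.29), and Cep152 at 1.49 against 0.808 FPKM, 1.84-fold higher (1.39 to 2.45). Cep57, of the same ring, was close in both libraries at 6.69 against 6.18 FPKM. Cep131, of the satellites around the centrosome, was at 9.08 against 5.32 FPKM, 1.71-fold higher (1.49 to 1.96), and Cep44, a protein of the centriole lumen, at 4.39 against 2.93 FPKM, 1.50-fold higher (1.22 to 1.85).

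Lower in the library labelled KO were Cep76, which holds back repeated duplication, at 1.49 against 3.19 FPKM, 2.14-fold lower (1.42 to 3.31), on at least 32 and 90 reads, and the very large centriolar protein gene Cep350 at 3.56 against 6.33 FPKM, 1.78-fold lower (1.36 to 2.36). Cep120, a factor for centriole elongation and the group's highest gene in the WT library, was at 9.05 against 13.3 FPKM, 1.47-fold lower (1.33 to 1.62). Cep135, a scaffold of the centriole's inner wheel, was at 1.29 against 1.87 FPKM, 1.45-fold lower (1.16 to 1.82), and Cep85 was 1.31-fold lower (1.15 to 1.49). Cep192, which recruits the matrix that nucleates microtubules, was close in both libraries at 2.48 against 2.76 FPKM. Of 10 proliferation markers 2 reached 1 FPKM, both in the library labelled KO alone, Birc5 (1.27 against 0.323 FPKM) and Ccnb2 (1.25 against 0.544 FPKM). Of their 2 counting intervals 1 held a ratio of 1. Sums over all 10 markers were 6.58 against 3.97 FPKM. Cep55, needed for the last cut of cell division, was at 0.0489 against 0.0558 FPKM. Cep63 overlaps Anapc13, a subunit of the anaphase-promoting complex on the opposite strand, by 269 bases in RefSeq; Anapc13, which was picked with its values in view, was at 49.2 against 24.1 FPKM, 2.04-fold higher (1.87 to 2.23).

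The remaining Cep genes held some of the widest differences short of the limit, in both directions. Cep170b was at 16.5 FPKM (KO) against 32.9 FPKM (WT), 1.99-fold lower (1.88 to 2.11), and its paralog Cep170, a protein of the subdistal appendages, at 2.83 against 5.78 FPKM, 2.04-fold lower (1.77 to 2.35). On the log2 scale Cep170b was at -0.95, and it passed the limit under each of the 3 scalings and after removal of the GC and length trend, at -1.04 to -1.17. Cep170 was at -0.82, and at -0.28 after removal of that trend. Cep126, which binds microtubules at the ciliary base, was at 1.38 against 2.27 FPKM, 1.64-fold lower (1.42 to 1.91).

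In the other direction, Cep95 was at 9.99 against 5.11 FPKM, 1.95-fold higher (1.69 to 2.26). On the log2 scale Cep95 was at 0.85, and at 1.07, past the limit, after removal of the GC and length trend. Its RefSeq span overlaps by 546 bases that of Ddx5, an abundant RNA helicase gene on the opposite strand at 368 against 262 FPKM. In GENCODE M21 the exons of Cep95 share no bases with Ddx5, and 1.6% of them with the antisense gene Gm11706. Whether reads of Ddx5 entered the Cep95 values was not tested. Cep250, which with Cep68 forms the linker between the centrioles, was at 7.51 against 3.88 FPKM, 1.93-fold higher (1.74 to 2.15). However, 11.1% of the exonic bases of Cep250 are shared with 6430550D23Rik on the opposite strand. Cep68 was at 3.78 against 4.80 FPKM, 1.27-fold lower (1.09 to 1.49). After removal of the GC and length trend Cep68 was at 0.019 and Cep250 at 0.72. Cep43, an anchor of microtubules at the centrosome, was at 5.996 against 3.74 FPKM, 1.60-fold higher (1.35 to 1.91). Cep70, Cep85l and Cep112 had intervals that held 1. Cep295nl, below 1 FPKM in both, was at 0.682 against 0.195 FPKM on at least 32 and 12 reads.

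The members' differences were set beside transcript length, because shorter transcripts stood higher in the library labelled KO over the whole table. Of the 9 members with transcripts of up to 2000 nucleotides 7 lay above 0, with a median of 0.46, beside 77.2% and 0.43 for all 3211 expressed genes of that length. Of 31 members between 2000 and 4000 nucleotides 16 lay above 0, with a median of 0.028 beside 0.076. Of 30 longer ones 13 lay above 0, with a median of -0.069 beside -0.20. The 4 shortest, Ift43, Arl3, Ift27 and Ift20, were all higher, and the 3 longest, Dync2h1, Cep350 and Rfx3, were all lower. These ends were picked with their values in view. Dync2li1, the next shortest at 1354 nucleotides, was lower (-0.58), and Cep250, at 7979 nucleotides, was higher (0.80). Across the 70 members the difference had a Pearson r of -0.323 and a Spearman rho of -0.245 with log2 length, and 0.294 and 0.367 with GC content; over 12372 genes these were -0.357, -0.391, 0.396 and 0.421. With this trend removed the members' median was 0.21 and 49 of 70 lay above 0, beside 0.075 and 55.9% over all genes. What sets the trend was not tested.

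**Figure D3:**
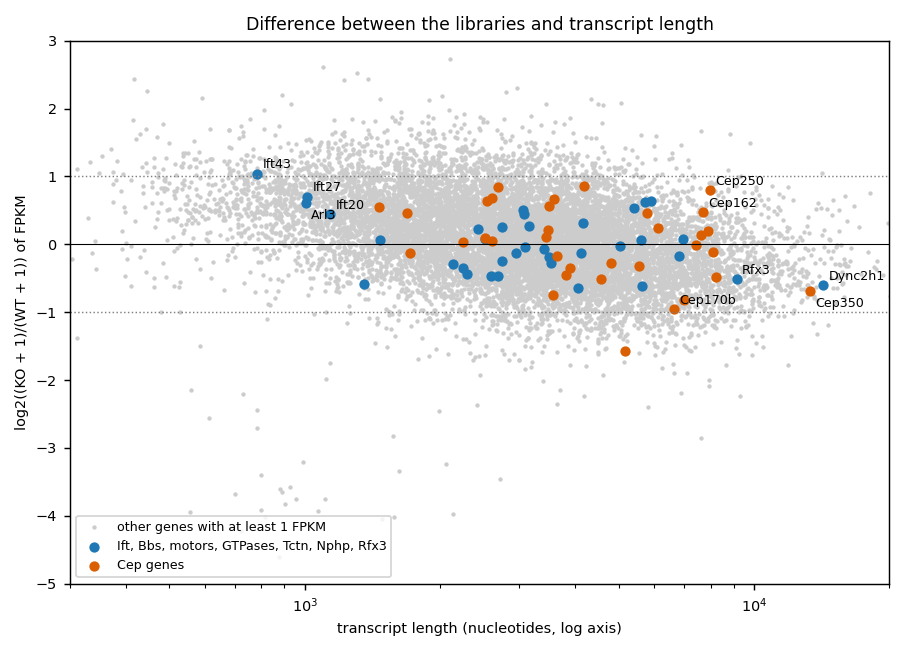
Log2 difference against transcript length (log axis) for expressed genes, with other genes in grey, Cep genes in orange and the other members in blue; dotted lines mark 2-fold. The shortest members lie above 0 and Dync2h1 and Cep350 at the long end lie below it, within the grey cloud.

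Other genes of the same structures, from lists that do not use the naming rule, are given here for comparison. Calls are again at 2-fold on the log2(FPKM + 1) scale, past which 6.98% of all expressed genes were higher and 3.88% lower. Over all expressed genes 54.4% lay above 0. Of 65 expressed genes of other primary cilium proteins, 2 were at least 2-fold higher and 2 lower, with a median of -0.099 (0.12 after removal of the GC and length trend) and 29 above 0. The higher ones were Fuz, a planar polarity effector needed for cilium assembly (29.3 against 11.5 FPKM, 2.54-fold higher, interval 2.28 to 2.84), and Mks1, of the transition zone (18.4 against 7.54 FPKM, 2.44-fold higher, interval 2.04 to 2.93). The lower ones were Rp2, which activates hydrolysis by Arl3 (2.41 against 9.23 FPKM, 3.83-fold lower, interval 3.24 to 4.55), and Ttc30b, of complex B (3.84 against 9.50 FPKM, 2.47-fold lower, interval 1.89 to 3.26). Rp2 and Arl3, regulator and target, thus stood on opposite sides. Of 35 other centrosome genes, whose median was 0.20, none was lower and 3 were higher: Haus5 (16.2 against 4.77 FPKM, 3.39-fold higher, interval 2.87 to 4.01) and Haus7 (8.92 against 3.95 FPKM), of the augmin complex that branches microtubules, and Ssna1 (36.9 against 14.8 FPKM, 2.49-fold higher, interval 2.13 to 2.92). The widest of the others was Tbccd1, at 3.77 against 7.90 FPKM. Of these 35 centrosome genes 19 lay above 0. Their median depended on the processing. It was 0.23 with a pseudocount of 0.1 FPKM, 0.20 with a floor of 5 FPKM and 0.15 after removal of the GC and length trend. Without a floor it was 0.087, and 0.047 with both libraries brought to a total of 1000000. With library sums made equal after leaving out the 20 highest genes, it was -0.0082.

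Among regulators, Rfx2, a close relative of Rfx3, was the single gene of 7 past the limit, at 9.08 against 3.92 FPKM, 2.32-fold higher (1.98 to 2.71). Rfx6, the family member needed for islet development, had the highest level of the family, 51.97 against 35.6 FPKM, and Rfx1 was at 4.42 against 2.91 FPKM. So as reported Rfx2 and Rfx6 stood higher and Rfx3 lower in the library labelled KO. The log2 difference of Rfx3 was 0.093 after removal of the GC and length trend. Foxj1, the master regulator of motile cilia, was below 1 FPKM in both, at 0.694 against 0.467 FPKM. Of the motile axoneme genes, Tekt2, a microtubule filament protein, was past the limit (11.4 against 4.24 FPKM, 2.70-fold higher, interval 2.20 to 3.33). Of the 12 genes of that list at or above 1 FPKM, Dnaaf1, Dnah11, Dnah2 and Tekt1 reached it in the library labelled KO alone, so the list is given over all its 23 genes in the table, whose median without a floor was 0.29.

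Hedgehog signalling, which in vertebrates runs through the primary cilium, had 11 expressed genes of 19. None of them was past 2-fold on the log2(FPKM + 1) scale. Their median was 0.27, but it was -0.67 with a floor of 5 FPKM and 0.026 after removal of the GC and length trend. Boc reached 1 FPKM in the library labelled KO alone, and without a floor the median over all 19 genes was 0.15. Its receptor Ptch1, also a target of the pathway, was at 2.82 against 6.58 FPKM, 2.33-fold lower (2.05 to 2.65), a log2 difference of -0.99. The inhibitor Sufu was at 4.21 against 2.31 FPKM and the co-receptors Boc and Cdon at 1.97 against 0.804 FPKM and 1.24 against 2.15 FPKM. Gli1, another target and below the floor of 1 FPKM, was at 0.695 against 0.129 FPKM. Of 10 expressed receptors known from cilia 1 was past the limit, the galanin receptor Galr3, at 3.98 against 10.1 FPKM, 2.55-fold lower (1.95 to 3.36). Sstr3, the somatostatin receptor of islet cilia, was at 54.7 FPKM (KO) against 66.7 FPKM (WT), 1.22-fold lower (1.17 to 1.27). Of 20 genes of tubulin modification 2 were higher and none lower, the glycylase Ttll3 (6.82 against 2.47 FPKM, 2.76-fold higher, interval 2.28 to 3.34) and the deacetylase Hdac6 (73.9 against 36.1 FPKM, 2.05-fold higher, interval 1.95 to 2.14), and the acetyltransferase Atat1, which acts against Hdac6, was at 20.5 against 9.91 FPKM, 2.07-fold higher (1.86 to 2.31).

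**Figure D4:**
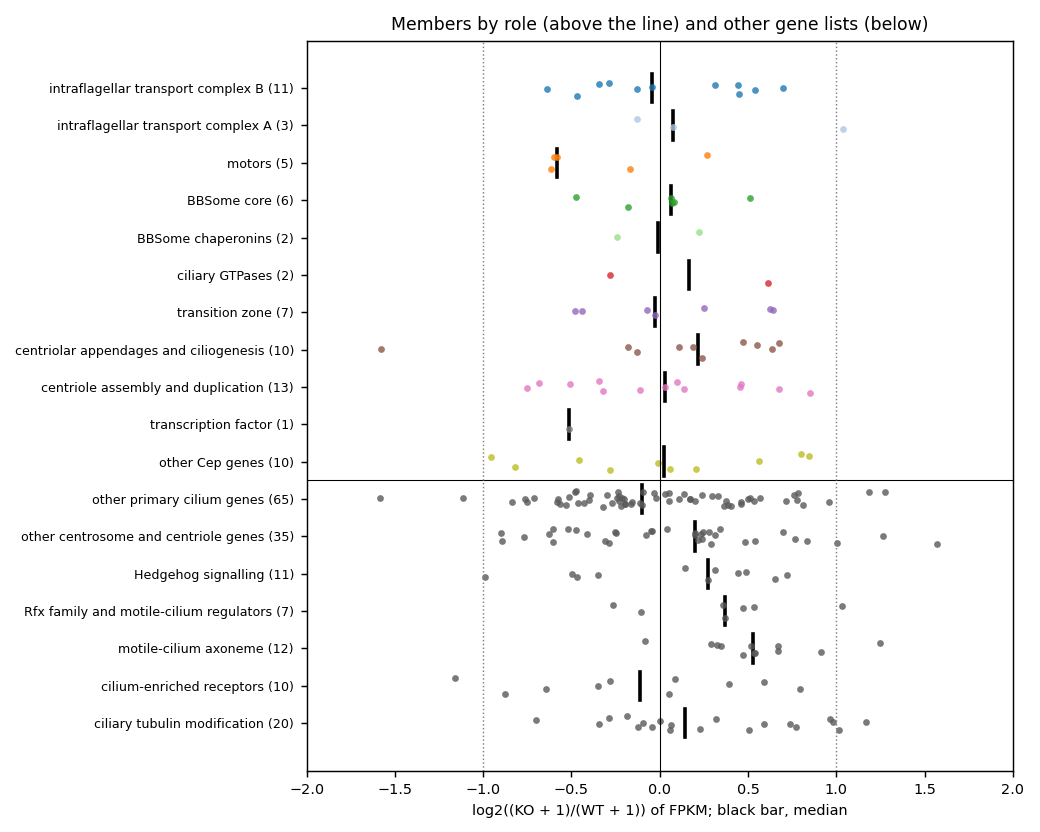
Log2 difference of each expressed gene by role for the members (above the line) and for the other lists (below), with the number of genes in parentheses, black bars at the medians and dotted lines at 2-fold. Most role medians lie within 0.25 of 0, and the motors and Rfx3 lie lower; genes are drawn only where they reached 1 FPKM in a library.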

How the data were processed

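Total RNA of 2 islet libraries, 1 per genotype, was converted with the SMARTER kit for mRNA, as the labels' protocols state. The authors deposited 1 table of FPKM values for 17245 genes; the submitters' processing notes name GRCm38 and mm10, and no aligner or counter is given in the sources used here. Each value was divided into whole reads at 1 total per library and 1 length per gene, with a tolerance of 1e-05 read. Of all genes 99.6% came out whole. The smallest reads per gene that fit gave the intervals (Python 3.11.15, scipy 1.17.1). Reads are thus lower limits, and intervals can be wider than the counting error. This step was tested on simulated data. Kept were the 12428 genes that reached 1 FPKM in 1 or both libraries, with a pseudocount of 1 FPKM. Names and exons came from GENCODE M21 and promoters from RefSeq. GC and length trends were lowess fits (statsmodels 0.14.6, fraction 0.3) on 12372 genes. The members and lists were chosen with earlier results of these data known. Named by rule were Rfx3, every gene past 2-fold, the highest and lowest difference and the highest WT level of each role, and the 4 widest genes of each other list; others were named after their values were seen. Some members counted here are not reported by name.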

Additional observations from a re-analysis of the deposited data

How the results depend on the processing

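Calls past 2-fold depended on the scale. With a pseudocount of 0.1 FPKM, 3 members in place of 1 were lower, Cep170 and Cep76 among them, 4 in all, and the other lists gave 23 calls in place of 12. With a pseudocount of 5 FPKM, 0 members were higher and 1 was called in all, and the other lists gave 3 calls. Scaling each library to a sum of 1000000, by the median ratio or to equal sums without the 20 highest genes left 0 members higher and 2 lower, Cep170b among them. The member median was -0.059 with the first and -0.062 with the last, and the number of the 11 role groups with a median above 0 went from 6 to 2, 3 and 2 in that order. After removal of the GC and length trend 1 member was higher, Cep95 in place of Ift43, and 2 were lower. The median was then 0.21 and 10 role groups lay above 0. Without a floor, and with a floor of 5 FPKM, 1 member was higher (Ift43) and 1 lower, as reported, but with a floor of 5 FPKM the median went from 0.028 to -0.12 for centriole assembly, from -0.027 to 0.091 for the transition zone, from 0.075 to 0.46 for complex A and from 0.022 to 0.56 for the other Cep genes. The sign of 7 members changed under at least 1 scaling (Bbs1, Bbs4, Bbs5, Cep57, Cep57l1, Cep70 and Ift140) and that of 13 after the GC and length trend was taken out (Arl13b, Bbs10, Cep135, Cep192, Cep290, Cep68, Cep83, Cep85l, Ift81, Ift88, Kif3c, Rfx3 and Tctn2); the cause was not tested. No paired analysis was possible because each genotype has 1 library, and none could be left out. Depth limits the low genes most: Cep55 rests on at least 2 and 3 reads.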

Other observations

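Tmtc3, which lies 182 bases from Cep290 on the opposite strand in RefSeq and encodes a mannosyltransferase of the endoplasmic reticulum, stood at 2.39 FPKM under the KO label against 8.32 FPKM in WT, a ratio of 0.287 with a counting interval of 0.244 to 0.335. Cep290 was at 1.75 against 2.83 FPKM, a log2 difference of -0.48 that turned to 0.14 after removal of the GC and length trend. Another gene on the opposite strand, 4930430F08Rik, overlaps Cep290 by 3398 bases in RefSeq and was at 1.46 against 2.86 FPKM. Its ratio was 0.512 (0.394 to 0.661). Whether its reads entered the Cep290 values was not tested. Tmtc3 was picked with its values in view.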
